A study of Mus musculus with 6 samples.

Results

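The genes described here make, remove or answer to malonyl-CoA: Acaca, Acacb, Mlycd, Cpt1a, Cpt1b and Cpt2, 6 of the 56980 genes listed in the files. They were taken by symbol, and the set was chosen by a known result, the low Acacb of adipocytes in old subcutaneous fat. Malonyl-CoA is the product of acetyl-CoA carboxylase. In the cytosol it is the building block of fatty acid synthesis, and at the outer mitochondrial membrane it blocks carnitine palmitoyltransferase 1, the enzyme that admits long-chain fatty acids to oxidation. Acaca encodes the cytosolic carboxylase and Acacb the carboxylase anchored at mitochondria. Mlycd encodes malonyl-CoA decarboxylase, which destroys the metabolite, Cpt1a and Cpt1b the widely expressed and the muscle-type transferase that malonyl-CoA inhibits, and Cpt2 the partner transferase of the inner membrane.

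The 6 libraries hold nuclei of white fat, 2 libraries in each of 3 groups, and all mice were untreated C57BL/6J females with no altered allele named. Young mice, aged 2 months, gave inguinal subcutaneous fat (SAT), and old mice, aged 24 months by their labels, gave SAT and gonadal visceral fat (VAT). Values are counts of unique molecular identifiers (UMIs), each standing for 1 RNA molecule, and levels are given as CPM, the UMIs of a gene scaled to a common total of all UMIs in that class of nuclei and library. After filtering, 27074 of 50859 barcodes remained, 2490 to 5776 per library, with medians of 1380 to 1878 UMIs per nucleus and totals of 8061862 to 16226690 UMIs per library. Pairs of libraries shared at most 0.769% of their barcodes. The labels name adipocytes as the cell type, but the nuclei were of many types, and adipocytes made up 3.20% to 63.4% of them. Adipocyte nuclei numbered 857 and 500 in SAT at 2 months, 677 and 2093 in SAT at 24 months, and 2813 and only 162 in VAT at 24 months. The second VAT library thus rests on few adipocyte nuclei though it counts as 1 of 2 in its group, and these nuclei also held 314 CPM of an ovary and oviduct marker list, against 13.4 to 49.3 in the other 5 libraries. The labels do not say which libraries share a mouse, so p-values measure the spread between libraries only. Adipocyte clusters carried their defining markers, with Adipoq (adiponectin) at 430 to 1410 and Plin1 (perilipin) at 777 to 1713 CPM in the 6 libraries.

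On GRCm39 the members are protein-coding genes spread over 6 chromosomes. Acacb (ENSMUSG00000042010) spans chr5:114284307-114388822 on the plus strand and Acaca (ENSMUSG00000020532) chr11:84020476-84292477 on the plus strand. Mlycd (ENSMUSG00000074064) spans chr8:120121303-120138492 on the plus strand and Cpt1a (ENSMUSG00000024900) chr19:3371853-3437996 on the plus strand. Cpt1b (ENSMUSG00000078937) lies at chr15:89300606-89310239 on the minus strand and Cpt2 (ENSMUSG00000028607) at chr4:107751473-107780812 on the minus strand. Cpt1b lies almost wholly within Gm44502, a gene model of the same strand at chr15:89300608-89313899, so a read in the shared stretch cannot be given to 1 of them by position. The strand setting of the counting is not given in the sources used here, so reads where a member overlaps a gene of the opposite strand cannot be told apart. Cpt2, with 1182 UMIs in adipocyte nuclei, overlaps Czib, which had 761, and its values are uncertain for that reason. Acaca meets Tada2a (1414 UMIs) at its first base, and Gm13784 inside Acacb had 7 UMIs.

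Sequences listed as promoters are shown for Acacb, the member with the largest difference between ages in adipocytes, and for Cpt1a, the member that was lowest in adipocytes relative to other classes. RefSeq entries on GRCm38.p6 matched 5 of the 6 members, all but Cpt1b. The 250 bases before the start of the matched entry are given 5′ to 3′. That start was not checked against the gene spans above, which are on another build, so a window may lie inside its gene. Capitals mark matches on either strand to CCAAT (the CCAAT box), GGGCGG (the GC box) or AGGTCA (the half-site of nuclear receptors). The Acacb window is chr5:114165268-114165517 and the Cpt1a window chr19:3323051-3323300, both on the plus strand.
Acacb: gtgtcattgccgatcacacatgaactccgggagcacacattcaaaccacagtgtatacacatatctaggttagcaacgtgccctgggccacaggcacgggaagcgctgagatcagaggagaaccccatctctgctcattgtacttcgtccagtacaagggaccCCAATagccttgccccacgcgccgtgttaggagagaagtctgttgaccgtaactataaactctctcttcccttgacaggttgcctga
Cpt1a: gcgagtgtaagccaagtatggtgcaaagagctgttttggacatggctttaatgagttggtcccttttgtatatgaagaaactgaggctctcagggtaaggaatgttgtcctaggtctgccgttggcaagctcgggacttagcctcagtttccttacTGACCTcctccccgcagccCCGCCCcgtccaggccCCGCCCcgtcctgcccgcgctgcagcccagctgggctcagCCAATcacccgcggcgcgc
The Acacb window held 1 CCAAT and neither of the other motifs, and the Cpt1a window held 1 CCAAT, 2 GC boxes and 1 half-site. Neither held CACGTG, the E-box bound by carbohydrate- and sterol-responsive factors. Among 32851 RefSeq promoters cut to the same length, 33.9% held CCAAT, 32.7% the GC box, 14.0% the half-site and 6.02% the E-box. These are letter matches and not binding sites.

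In adipocytes of SAT, both carboxylase genes were far lower at 24 than at 2 months. Cpt2 was lower by a smaller factor, and the old libraries of Mlycd and Cpt1a overlapped the young ones or enclosed them. Acacb stood at 1781 and 2137 CPM in the libraries of 2 months and at 144 and 102 in those of 24 months. The young and old libraries did not overlap, and the means, 1959 ± 252 and 123 ± 29.6 (SD, n = 2 each), were 15.9-fold apart. The fitted log2 fold change was -3.84 ± 0.48 (SE of the edgeR quasi-likelihood fit). Acaca was 1025 and 1272 CPM at 2 months and 298 and 440 at 24 months, again without overlap. Its log2 fold change was -1.48 ± 0.33. Since Acacb was selected on this contrast, these values are a description and no p-value is given for any member. As background, 13.7% of 12869 genes tested in adipocytes passed an adjusted p of 0.05 in this contrast, and 2 of the 5 members tested, both carboxylase genes, were among them. Nothing is read from that count, which fell to 1 without either young library or without the first old one (Acaca lost) and to 0 when adipocytes were picked by marker UMIs.

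Cpt2 was 99.7 and 91.8 CPM in young SAT adipocytes and 58.6 and 58.8 in old ones. These libraries did not overlap, although the difference was smaller than for either carboxylase gene, with a log2 fold change of -0.56 ± 0.24. Mlycd was 32.3 and 29.8 CPM at 2 months and 23.4 and 34.2 at 24 months. The old libraries lay on both sides of the young ones, and the log2 fold change was 0.06 ± 0.33, which turned to -0.14 without the second old library. Over 15 alternatives the Mlycd value ran from -0.37 to 0.33. Cpt1a was scarce in adipocytes, with 11.7 and 20.6 CPM at 2 months and 34.5 and 15.6 at 24 months. Its groups overlapped, its log2 fold change was 0.79 ± 0.51, and the values rest on 39 UMIs in young and 135 in old SAT. With a library left out it ran from 0.22, without the first old library, to 1.43, without the second.

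Cpt1b had no UMI in any of the 50859 barcodes. Whether the counting dropped reads that Cpt1b shares with Gm44502 is not given in the sources used here, so the 0 may not reflect the level of the RNA. If such reads were counted, 3 UMIs in a library would correspond to 0.261 to 0.570 CPM of its kept nuclei. The surrounding model Gm44502 had 3 UMIs in all kept nuclei. Skeletal muscle nuclei, in which Cpt1b would be sought first, numbered 3 to 58 per library. On the same condition 3 UMIs in the library with most of them would correspond to 34.6 CPM. Cpt1b did not pass the filter on low counts in any class and entered no test.

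**Figure D1:**
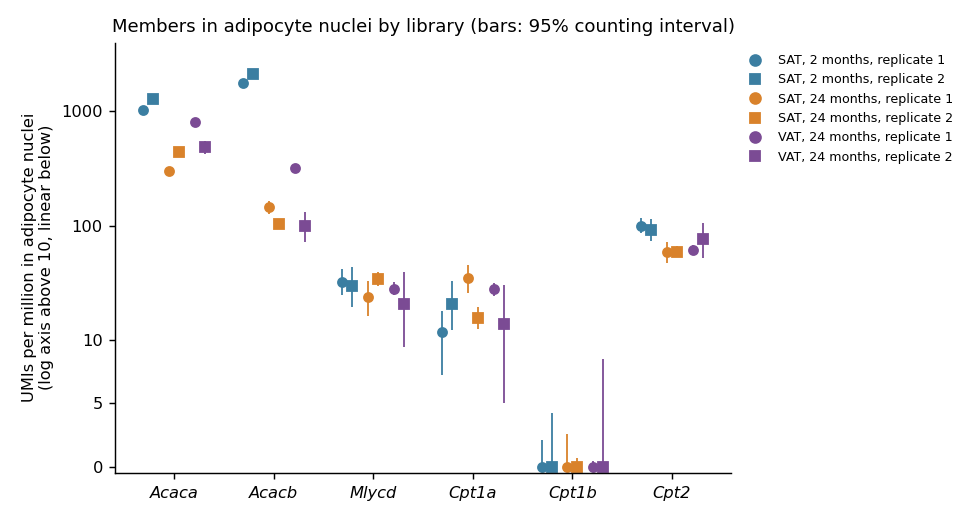
CPM of the 6 members in adipocyte nuclei of each library, on an axis that is logarithmic above 10 and linear below, with bars for the exact 95% Poisson interval of the count. Acacb was at 1781 and 2137 in SAT at 2 months and at 144 and 102 at 24 months, Acaca at 1025 and 1272 and then 298 and 440, and Cpt1b was at 0 in every library.

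Levels of different genes were set side by side per kilobase of gene span, since nuclear RNA includes introns. Whether UMI counts rise with gene span was not tested, so these values depend on the divisor. The balance of both carboxylase genes, given below, is a share of raw UMIs without this division. In young SAT adipocytes Acacb had 18.8 CPM per kilobase, Acaca 4.22, Cpt2 3.26, Mlycd 1.81 and Cpt1a 0.244. In old SAT adipocytes the same measure was 1.18 for Acacb, 1.36 for Acaca, 2.00 for Cpt2, 1.68 for Mlycd and 0.379 for Cpt1a. In old VAT it was 1.98 for Acacb, 2.37 for Acaca, 2.34 for Cpt2, 1.42 for Mlycd and 0.313 for Cpt1a. Acacb was first of the 5 at 2 months. At 24 months these are means of 2 unlike libraries, and no order of the genes is read from them.

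The difference was also seen nucleus by nucleus. Every nucleus was thinned to 1000 UMIs so that depth was equal. Acacb was then detected in 70.6% (exact 95% binomial interval 67.4 to 73.6) and 75.2% (71.2 to 78.9) of adipocyte nuclei of young SAT. In old SAT it was detected in 11.7% (9.35 to 14.3) and 8.27% (7.12 to 9.53). Without thinning these shares were 82.0%, 83.8%, 18.0% and 16.2%. For comparison, T cells had an Acacb UMI in 3.00% and 3.32% of thinned nuclei in young SAT and in 0.924% and 1.85% in old SAT. Median depths before thinning were 1575 to 1993 UMIs in SAT adipocytes. Intervals and limits here cover counting error only.

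The balance of both carboxylase genes does not depend on how libraries are scaled. Acacb made up 63.5% (62.1 to 64.8) and 62.7% (60.9 to 64.4) of the UMIs of Acaca and Acacb in young SAT adipocytes. It made up 32.6% (29.0 to 36.4) and 18.9% (17.5 to 20.3) in old SAT and 28.2% (27.2 to 29.1) and 16.9% (12.5 to 22.03) in old VAT. The young libraries lay close together, and the intervals of both SAT libraries at 24 months do not meet. These intervals cover counting error only, so they do not show how large the usual spread between libraries is. The mean share was 37.3 percentage points apart between ages in SAT, a description for the reason given above. Between depots at 24 months the mean share was 25.7% ± 9.72 in SAT and 22.5% ± 8.01 in VAT (SD, n = 2 each). An exact two-sided permutation test over libraries gave p = 0.67 for that difference, where 2 against 2 libraries allow no p below 0.33, and leaving out the first SAT library at 24 months or the second VAT library turned the sign, to 3.65 and 2.45 points higher in VAT.

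**Figure D2:**
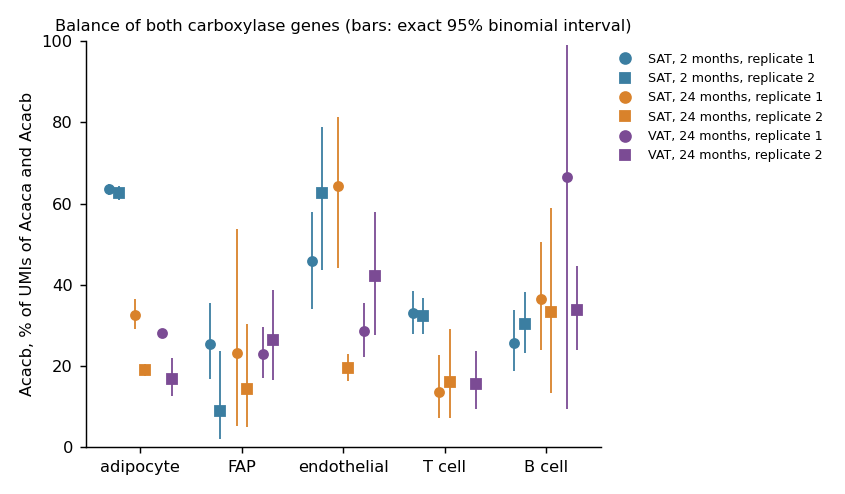
Acacb as a percentage of the UMIs of Acaca and Acacb, for each library in 5 cell classes, with exact 95% binomial intervals (libraries with under 20 nuclei of a class are left out). In adipocytes SAT at 2 months lies at 63.5% and 62.7% and the 4 libraries of 24 months lie between 16.9% and 32.6%.

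Between depots at 24 months, no member passed the test over all genes. Acaca and Cpt2 had VAT libraries that lay above those of SAT. With 2 libraries a group such a separation arises easily, and no share over all genes is given for it, so nothing is read from it. The depot comparison shares the old SAT libraries with the one between ages. In adipocytes only 0.148% of 12869 genes passed, and 0 of the 5 members tested did (1 at an unadjusted p under 0.05 with edgeR, 0 called with DESeq2). Acaca was 806 and 485 CPM in VAT against 298 and 440 in SAT. Its libraries did not overlap, and the log2 fold change, VAT over SAT, was 0.85 ± 0.33 with a 95% interval of 0.15 to 1.56 (adjusted p = 0.639, edgeR quasi-likelihood test). Without the first VAT library it was 0.36, and without the second 1.18. Acacb was 316 and 98.4 in VAT against 144 and 102 in SAT. These groups overlapped, with a log2 fold change of 0.86 ± 0.44, an interval of -0.09 to 1.82 and an adjusted p of 0.761 in edgeR, and without the first VAT library the sign turned to -0.35. Cpt2 was 61.5 and 75.5 in VAT against 58.6 and 58.8 in SAT (log2 fold change 0.22, interval -0.33 to 0.76, edgeR adjusted p = 0.92). For Mlycd the edgeR log2 fold change was -0.14 with an interval of -0.87 to 0.59 (adjusted p = 0.968), and for Cpt1a 0.00 with an interval of -0.98 to 0.99 (adjusted p = 0.999). The intervals leave room for changes of over 1.5-fold in either direction for Mlycd and Cpt1a.

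Of 7 lists of the wider pathway, 10 different genes passed the edgeR test over all genes with age in SAT adipocytes, a share close to the 13.7% of all genes that passed, so the lists do not stand apart by their count. All but Prkag3 lost the call with adipocytes picked by marker UMIs, and other settings that end a call are given below. Among 16 genes that supply or regulate the carboxylases, 2 rose, 2 fell and 12 did not pass, against 13.7% of all genes called (median log2 fold change -0.21, against 0.00 over all genes tested). Prkag3, a regulatory subunit of AMP-activated protein kinase known from skeletal muscle, had 1 UMI in each young library and 93 and 218 in the old ones. That is 0.557 and 1.15 CPM at 2 months against 64.1 and 40.0 at 24 months, a ratio of 60.2 with a counting interval of 16.5 to 499 (log2 fold change 6.15 ± 0.64, adjusted p = 0.000191). Old VAT adipocytes were at 55.3 and 34.3, in the range of old SAT. Mid1ip1, whose product helps acetyl-CoA carboxylase polymerise, rose from 3.90 and 3.44 to 15.2 and 14.0 (2.10 ± 0.64, adjusted p = 0.0474). That call was lost under library-size scaling, with DESeq2, with looser filters, after thinning and without any 1 of the 4 SAT libraries (edgeR adjusted p of 0.0542 to 0.210 in the last). Slc25a1, the citrate carrier that exports the carbon for acetyl-CoA, fell from 121 and 143 to 31.7 and 51.4 CPM (-1.47 ± 0.27, adjusted p = 0.00459, and 0.0549 in edgeR without the second young library). Stk11, the kinase LKB1 that activates AMP-activated protein kinase, fell from 300 and 344 to 164 and 131 (-0.97 ± 0.25, adjusted p = 0.0272). Its call was lost without the filter on low counts (edgeR adjusted p = 0.0835), with looser filters (0.0586), without either young library (0.131 and 0.252) and without the second old one (0.258).

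Of the genes that carry acyl groups with carnitine, 6 of 9 were tested beside the members and 2 fell, against 13.7% of all genes called. Crat, carnitine acetyltransferase, was 364 and 363 CPM in young SAT and 107 and 156 in old SAT (log2 fold change -1.30 ± 0.25, edgeR adjusted p = 0.00617). Without either young library or the first old one Crat did not pass (0.0591, 0.0637 and 0.0627). Slc25a20, the carnitine-acylcarnitine carrier that works between Cpt1 and Cpt2, was 135 and 108 against 44.8 and 51.3 (-1.18 ± 0.25, adjusted p = 0.0102, and 0.140 in edgeR without the first young library). The median of the 6 was -0.48. None of 19 tested genes of mitochondrial beta-oxidation passed (median -0.21), nor did any of 6 acyl-CoA synthetases (median -0.01) or of 5 tested users of malonyl-CoA (median -0.50), where 13.7% of all genes passed. Fasn, fatty acid synthase and the chief consumer of malonyl-CoA, had values of 533 and 475 in young SAT against 31.0 and 318 in old SAT, a log2 fold change of -1.37 ± 0.64 with an edgeR adjusted p of 0.176. Its old libraries lay far apart, and the gene did not pass.

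Among 12 transcription regulators 1 rose and 3 fell, against 13.7% of all genes called (median -0.54). Srebf1, a driver of lipogenic genes, fell from 660 and 775 CPM to 162 and 231 (log2 fold change -1.71 ± 0.29, edgeR adjusted p = 0.00316). Ppara, a driver of fatty acid oxidation, fell from 333 and 530 to 128 and 79.9 (-1.90 ± 0.40, adjusted p = 0.00961, and 0.112 in edgeR without the second young library). In the same direction went Rxra, its dimer partner, from 69.7 and 72.3 to 31.0 and 35.6 (-0.92 ± 0.27, adjusted p = 0.0397). The Rxra call was lost with DESeq2, without the filter on low counts, with looser filters, without batch correction, after thinning and without any 1 SAT library (edgeR adjusted p of 0.157 to 0.236 in the last). Pparg, the adipocyte master regulator, rose from 1391 and 1359 to 3372 and 2306 (1.21 ± 0.36, adjusted p = 0.0454). The Pparg call was lost under library-size scaling (edgeR adjusted p = 0.0567), with looser filters (0.0653), after thinning (0.0561), without either young library (0.213 and 0.279) and without the first old one (0.135). Of the 13 genes of a lipogenic list, Srebf1 and Slc25a1 fell and the other 11 did not pass, where 13.7% of all genes did (median -0.76). Between depots 0 genes of these lists passed, at 0.148% of all genes. The lists were drawn up with earlier results of these data known and are not independent evidence of a direction.

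**Figure D3:**
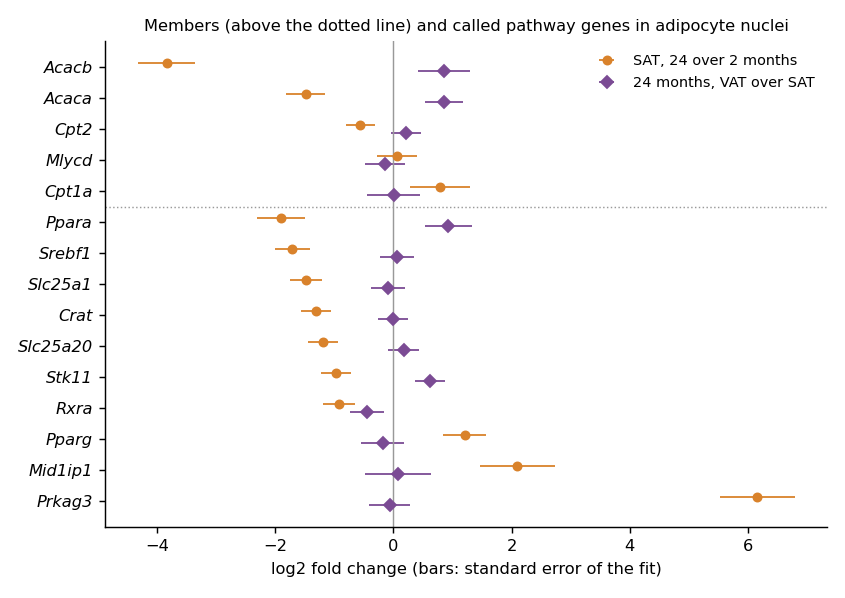
Log2 fold changes with standard errors in adipocyte nuclei, for the 5 members that passed the filter (above the dotted line) and the 10 pathway genes that passed the test with age in SAT. Circles give SAT at 24 over 2 months and diamonds VAT over SAT at 24 months. Prkag3 is at 6.15 and Acacb at -3.84 with age, and no gene shown passed the test between depots.

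Contents other than adipocyte RNA also differed between the libraries. In adipocyte nuclei, 10 T cell markers summed to 314 and 618 CPM in young SAT and to 65.5 and 37.3 in old SAT, all 10 with UMIs in each. B cell markers summed to 321.5 and 484 against 98.0 and 184, and lymph node markers to 88.0 and 165 against 13.8 and 12.1. Markers of fibro-adipogenic progenitors went the other way, at 2216 and 1668 against 2304 and 4952. Over all kept nuclei the median mitochondrial share was 1.72% and 0.918% in young and 3.49% and 2.91% in old SAT. The list of 13 adipocyte markers itself summed to 22710 and 23290 in young and 33880 and 32640 in old SAT. Of 8 thermogenic adipocyte markers, 7 had UMIs in each SAT library, and they summed to 160 and 174 against 75.9 and 87.1, with Ucp1, the defining uncoupling protein, at 0.184 to 1.15 in these libraries. The part of these values in the age differences was not tested.

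Among the 10 named classes with 5 or more libraries, immune nuclei as a whole left out since their parts are given, Acacb had its highest median in adipocytes, and Cpt1a its lowest. These are descriptions, since classes were cut from the same nuclei. The median of Acacb over libraries was 230 CPM in adipocytes (lowest 98.4, highest 2137). Clusters left unnamed, pooled, had a median of 139 (38.1 to 323) and may hold several types. Of the named classes endothelial nuclei followed at 116 (54.9 to 321) and B cells at 48.1 (33.8 to 79.5). The remaining named classes with 5 or more libraries had medians of 15.9 in dendritic cells to 41.1 in smooth muscle or pericytes, and their ranges overlapped one another. Acaca was likewise first in adipocytes, at a median of 646 (298 to 1272), before endothelial nuclei at 222 (45.4 to 379). Endothelial nuclei held 1810 to 11270 CPM of the adipocyte marker list, against 498 to 2227 in B cells and 636 to 1827 in T cells, and the part of this in their place was not tested. Cpt2 had its highest median, 68.5, in adipocytes (58.6 to 99.7).

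Cpt1a ran the other way. Its median was 18.1 CPM in adipocytes (11.7 to 34.5) and 43.4 to 120 in the other 9 classes with 5 or more libraries, highest in macrophages (64.6 to 193). In thinned nuclei a Cpt1a UMI was found in 1.19% to 3.40% of adipocytes and in 5.80% to 16.6% of macrophages. The Cpt1a ranges of macrophages, mesothelial, epithelial, endothelial and fibro-adipogenic progenitor (FAP) nuclei overlapped. Mlycd had medians of 8.56, in smooth muscle or pericytes from 13 UMIs, to 28.9 in adipocytes, and 34.2 CPM in its highest adipocyte library. Skeletal muscle reached 20 nuclei in only 2 libraries. Its 25 nuclei in the second old SAT library had Mlycd at 365, from 17 UMIs (interval 212 to 584), and Acacb at 300.4, from 14 UMIs (164 to 504), above the 102 of adipocytes in that library. The 58 muscle nuclei of the second VAT library had Mlycd at 0 and Acacb at 23.1.

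**Figure D4:**
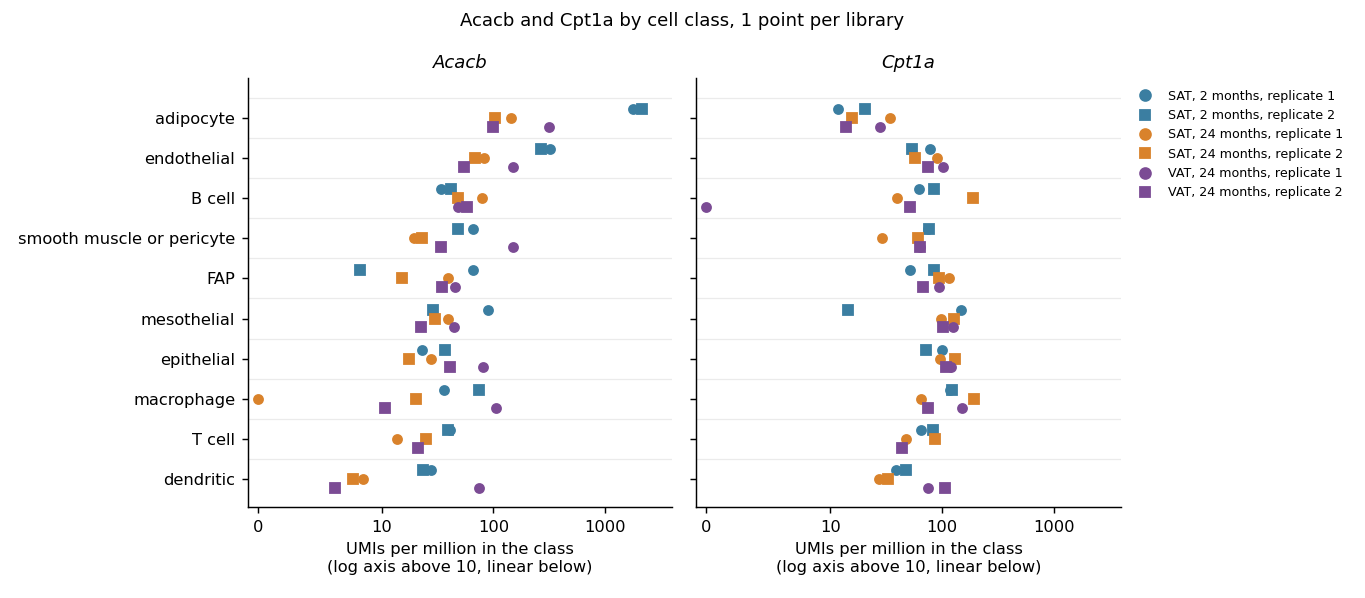
CPM of Acacb (left) and Cpt1a (right) in 10 cell classes, 1 point per library with at least 20 nuclei, on an axis that is logarithmic above 10 and linear below. Acacb is highest in adipocytes of SAT at 2 months (1781 and 2137), and Cpt1a has its lowest class median, 18.1, in adipocytes.

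Outside adipocytes no member passed the test in either contrast. With age in SAT, 42 tests of a member in 10 classes gave 0 calls with edgeR (3 at an unadjusted p under 0.05) and 0 with DESeq2. The background was 0% of genes called in FAP, immune nuclei as a whole, mesothelial, smooth muscle or pericyte and macrophage nuclei. It was 0.0255% in endothelial, 0.789% in dendritic, 1.67% in B, 2.94% in epithelial and 11.1% in T cells. Between depots, 37 tests in 9 classes gave 0 calls with edgeR (2 unadjusted) and 0 with DESeq2. There the background was 0% in FAP, immune, endothelial, B cell and macrophage nuclei, 2.1% in smooth muscle or pericyte, 4.36% in mesothelial, 7.52% in dendritic and 10.2% in epithelial nuclei. Several of these shares changed widely with a library left out. T cells were not compared between depots under the main filters, which left 15 nuclei in the first VAT library. With looser filters, or without that library, 0 of the 5 members passed there (smallest adjusted p of 0.432 and 0.436 in edgeR).

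Acacb had a negative log2 fold change with age in 8 of the 9 classes where it was tested, which are not separate cases, since immune nuclei as a whole hold the T, B, macrophage and dendritic nuclei. In T cells it was 41.0 and 39.5 CPM at 2 months and 13.6 and 24.6 at 24 months (log2 fold change -1.16 ± 0.37, edgeR adjusted p = 0.0570). The value passed with library-size scaling (adjusted p = 0.0403 in edgeR), with no filter on low counts (0.0430) and without the second SAT library of 24 months (0.00961), so the call hangs on the setting. In endothelial nuclei it was 321 and 267 against 81.7 and 68.9 (-1.72 ± 0.59, edgeR adjusted p = 0.315). In dendritic cells it was 27.6 and 23.2 against 8.52 and 7.68, from 9 UMIs in old SAT (-1.42 ± 0.66, edgeR adjusted p = 0.527). In macrophages it was 36.3 and 73.8 against 0 and 20.2 (-1.84 ± 1.07, edgeR adjusted p = 0.575). The log2 fold change was -2.30 without the first young library and -1.30 without the second, and without the second old library only a library at 0 is left to compare. B cells were the exception, at 33.8 and 41.3 against 79.5 and 47.7 (0.97 ± 0.47, edgeR adjusted p = 0.423, and a log2 fold change of 0.36 without the first old library). None of these passed the test in these classes.

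RNA carried over from adipocytes would bring adipocyte markers along with Acacb. For every 100 UMIs of the adipocyte marker list, T cells of young SAT held 4.81 and 4.85 Acacb UMIs and those of old SAT 1.47 and 1.35. Adipocytes themselves held 7.85 and 9.18 in young and 0.426 and 0.314 in old SAT. Both ratios were lower in the old libraries, and the part of such RNA in the T cell difference was not tested. Acacb also shifted against Acaca in T cells, from 33.0% and 32.2% of the UMIs of both genes at 2 months to 13.6% (7.25 to 22.6) and 16% (7.17 to 29.1) at 24 months.

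Between depots, Acacb in immune nuclei was 103 and 27.3 CPM in VAT against 19.6 and 19.1 in SAT (log2 fold change 1.70 ± 0.68, edgeR adjusted p = 0.543). The groups did not overlap, but VAT rested on its first library, where adipocytes made up 63.4% of nuclei, and it passed without the filter on low counts (edgeR adjusted p = 0.0287) and without the second VAT library (log2 fold change 2.48, adjusted p = 0.0275). Without the first VAT library the log2 fold change was 0.31. Adipocyte markers moved with it, at 7290 CPM in immune nuclei of the first VAT library, 601 in the second and 928 and 3053 in old SAT, and their part in the difference was not tested. Cpt1a in dendritic cells was 74.9 and 106 in VAT against 27.3 and 32.6 in SAT (1.36 ± 0.53, edgeR adjusted p = 0.129). Only 28 and 92 VAT nuclei stood behind it, with 3 and 17 UMIs, and the value passed under library-size scaling (1.75, edgeR adjusted p = 0.0425) but was 0.62 without the second VAT library.

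Among adipocyte nuclei the carboxylase genes were mostly higher where lipogenic genes were. Nuclei were split by their UMIs of the 13 lipogenic genes, none of them a member, after thinning to 1000 UMIs. Acacb was higher in nuclei with 3 or more such UMIs than in those with 1 to 2 in 6 of 6 libraries, at a ratio of 1.11 to 3.70. Acaca was higher in 5 of 6, and its ratio over all 6 libraries ran from 0.92, in the first old SAT library, to 4.08. Counting intervals overlapped in 4 of the libraries for Acacb, and the order was not tested. The step was clearest in the first VAT library, where Acacb was 177 CPM (154 to 203) with 1 to 2 lipogenic UMIs and 657 (610 to 706) with 3 or more. In old SAT the nuclei with 3 or more, 31.9% and 77.45% of the adipocytes, had 204 (148 to 274) and 113 (97.1 to 131). In young SAT the 45 and 11 nuclei without a lipogenic UMI had 1333 (1017 to 1716) and 1091 (564 to 1906), above these old SAT values. The part of the lipogenic genes in the age difference was not tested.

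Sub-clusters of adipocytes gave the same picture at a finer grain. The 11 sub-clusters were cut without the members among the variable genes, but the genes that co-vary with them were used, so the values are a description. In young SAT Acacb ran from 986 to 2805 CPM over 10 sub-clusters of the first library and from 1025 to 2833 over 8 of the second. In old SAT it ran from 53.2 to 308 and from 42.5 to 393, so the highest old sub-cluster lay below the lowest young one. The first VAT library spanned from 94.5 to 3253. Its high end was sub-cluster 10, led by Cidea, Ppara and Acly, in which 83 nuclei held 624 of the 2493 Acacb UMIs of that library's adipocytes. Acaca was 6448 CPM there and Cpt2 167, against 61.5 for Cpt2 in all adipocytes of the library. Sub-cluster 9, led by Fasn, Elovl6 and Scd1, had Acacb at 1481 in the same library, and sub-cluster 7, led by Fgf14, Acaca and Angpt1, at 903. Ucp1 reached 17.5 CPM in adipocytes of this library and at most 1.15 in the other 5. In the same sub-cluster 10, of 157 nuclei in all, 27 nuclei of the second old SAT library had Acacb at 393 and Acaca at 1678, and 22 nuclei of the first young SAT library had 2805 and 1899. The other 3 libraries had under 20 nuclei each there and are not given.

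**Figure D5:**
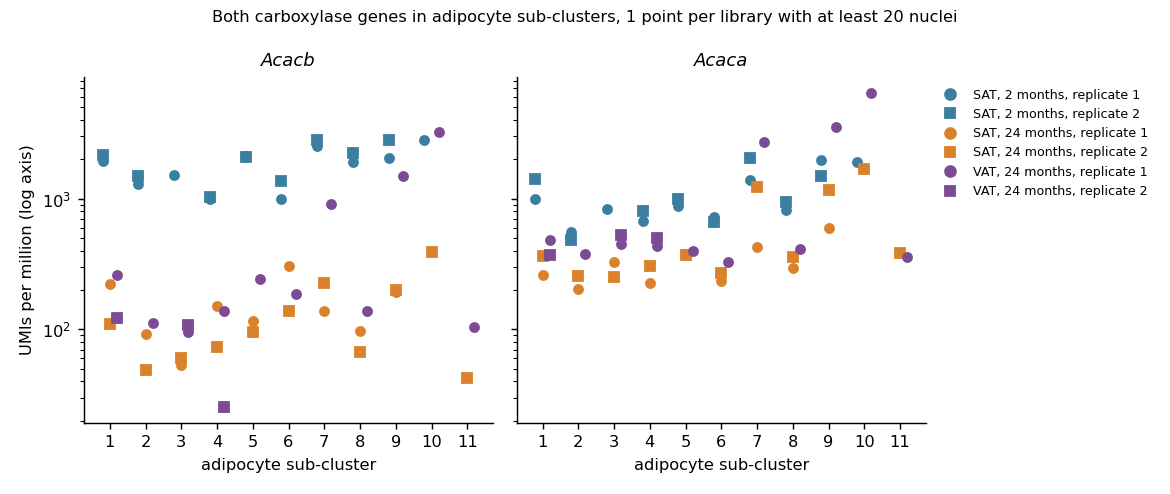
CPM (log axis) of Acacb (left) and Acaca (right) in the 11 adipocyte sub-clusters, 1 point per library with at least 20 nuclei of the sub-cluster. Acacb in SAT at 24 months stays at or below 393 throughout, while VAT replicate 1 climbs to 903, 1481 and 3253 in sub-clusters 7, 9 and 10.

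Genes whose levels went most like those of the members were ranked over 61 units of class and library by Pearson correlation of log2(CPM + 10), among 9576 genes with a mean of at least 20. These units share libraries, depth and carried-over RNA, so the values describe likeness only. Nearest to Acacb were Cyp2e1 (r = 0.779), a cytochrome P450, Aldh1l1 (0.764), a folate enzyme, Sh3glb2 (0.747), Mlxipl (0.744), the carbohydrate-responsive factor ChREBP, and Ces1d (0.742), a carboxylesterase. Nearest to Acaca were Aldh1l1 (0.778), Fam13a (0.775) and Nrg4 (0.769), which encodes an adipocyte-secreted growth factor. Cpt1a had no close neighbour, with Itgav (0.628), Ptma (0.618) and Eps8 (0.616) first. Cpt1b, at 0 throughout, has no such ranking.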

How the data were processed

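Single-nucleus libraries (Singleron GEXSCOPE) were processed by the authors with Celescope on GRCm39, and the files hold UMI counts per gene and barcode as the authors deposited them, not normalised. The older age is 24 months per the labels, while the study's text gives a different one. All 56980 genes were identical across the 6 libraries, and 56236 of their identifiers matched GENCODE on GRCm39. Visceral fat of young mice was not analysed here.

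The study's filters were applied, so a kept nucleus had more than 500 genes and 1000 UMIs with mitochondrial UMIs below 15%. They were clustered on 1000 variable genes without the members, 30 principal components, a Harmony correction by library, 20 neighbours and Leiden resolution 2.0 (scanpy 1.11.5, leidenalg 0.10.2, Python 3.11.15), giving 42 clusters. A cluster was named from at least 3 raised markers of a list and left unnamed where another list came close or its leading genes belonged elsewhere. The last rules were set after the clusters were seen, so a difference from the study may come from these rebuilt names. Scrublet marked only 36 nuclei and so did not work as a doublet caller, and an alternative without the top 5% of scores in each library was added after seeing the data.

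Counts were summed per library and class with at least 20 nuclei. Contrasts used edgeR 4.0.16 (R 4.3.3) with TMM scaling, filterByExpr, quasi-likelihood tests and Benjamini-Hochberg adjustment over all genes of the class, called at 0.05. All 3 groups entered each fit. DESeq2 1.42.0 was an alternative. The code of the fit was checked on simulated counts with the same dispersion for every gene. That is a simpler setting than these uneven libraries, and nothing is read from it. Intervals are exact Poisson or Clopper-Pearson at 95%. Levels are CPM within the class, and shares of nuclei were taken after thinning each nucleus to 1000 UMIs. Library totals of 8061862 to 16226690 UMIs set the precision.

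Members and gene lists were chosen with earlier results of these data known. Named genes are the 6 members, in each pathway list up to 4 genes with the largest changes among those called with age and up to 2 called between depots, the nearest neighbours by correlation, and class markers. Fasn, Adipoq, Plin1, Ucp1 and Gm44502 were added after their values were seen. Alternatives were other scaling, DESeq2, no low-count filter, only the 4 libraries compared, a replicate block, each library left out, looser nuclei filters (300 genes, 500 UMIs, 20%), doublets out, no batch correction, adipocytes by at least 5 marker UMIs, thinned nuclei, and Leiden resolution 1.0.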

Additional observations from a re-analysis of the deposited data

Results flagged for a closer look

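In several classes every SAT library moved with age against the direction of adipocytes, where both libraries of 24 months lay below both of 2 months for Acacb, Acaca and Cpt2. The difference between classes was not tested in any of these, and macrophages are part of the immune nuclei. With 2 libraries a group such a separation arises easily, and these cases were picked from all members and classes. Acacb in B cells had a mean ratio of 24 over 2 months of 1.69. Acaca had a ratio of 1.49 in smooth muscle or pericytes, 1.30 in T cells and 1.44 in macrophages. Adipocyte markers were higher at 24 months in the same nuclei, at 1688 and 5682 CPM against 905 and 986 in macrophages, 3328 and 4583 against 2400 and 1909 in smooth muscle or pericytes, 924 and 1827 against 851 and 814.5 in T cells, 998 and 1886 against 818 and 769 in B cells, and 928 and 3053 against 833 and 781 in all immune nuclei. Their part in these ratios was not tested. Cpt2 had a ratio of 1.14 in immune nuclei, 2.45 in smooth muscle or pericytes and 2.24 in macrophages. Between depots, where Cpt2 in adipocytes of both VAT libraries lay above both of SAT, its VAT over SAT ratio in macrophages was 0.468, with adipocyte markers there at 8077 and 732 CPM in VAT.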

How the results depend on the processing

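Of the members called with age in SAT adipocytes (2), 0 were called with adipocytes picked by marker UMIs and 1 to 2 with a library left out, Acaca being lost without either young library and without the first old one. Genes called there (1758) numbered 195 with marker adipocytes, 1139 after thinning and 450 to 1649 with a library left out. Library-size scaling moved the median of all genes to -0.17 and the split of calls from 833 higher and 925 lower to 632 and 1252. Between depots, genes called (19) numbered 33 with DESeq2, 146 without the filter, 10 with only the 4 libraries, 30 with the replicate block, 5 with looser filters, 0 with marker adipocytes, 3 after thinning and 24 to 95 with a library left out. Members called outside adipocytes (0) became 1 with age, Acacb in T cells, under library-size scaling, without the filter, and in 0 to 1 with a library left out. Between depots they became 1 under library-size scaling (Cpt1a in dendritic cells), 1 without the filter and 0 to 1 with a library left out (Acacb in immune nuclei). Pathway genes called with age (10) numbered 1 with marker adipocytes, 6 with looser filters, 16 with the replicate block and 3 to 11 with a library left out, and between depots (0) 1 without the filter and 0 to 1 with a library left out. The replicate block paired libraries by a number only (correlation of deviations -0.096 and 0.085), and it changed no call of a member. The Cpt1a depot difference in adipocytes, 0.00, was -0.038 under library-size scaling, -0.0391 without batch correction, -0.13 with DESeq2, -0.0162 with only the 4 libraries, -0.0179 with looser filters, -0.0942 with the block and -0.83 to 0.64 with a library left out, below 0 without the second old SAT library (-0.55) or the first VAT library. For Mlycd it ran from -0.54 to 0.13 with a library left out, above 0 without the second old SAT library, and for Acacb from -0.35, without the first VAT library, to 1.42. The depot difference in the Acacb share ran from -10.1 to 3.65 points with a library left out. The cause of these shifts was not tested. The Acacb age fold change ran from -4.05 to -3.49 over 15 alternatives. Few UMIs limit Cpt1a and Mlycd in adipocytes.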

Other observations

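A further cluster of 205 nuclei came closest to the B cell markers but was left unnamed, since 8 of its 10 leading genes, Acacb first, were highest in another class. Acacb stood at 1224 and 1647 CPM in its 82 and 56 nuclei of young SAT and at 112 and 161 in its 22 and 33 nuclei of old SAT. Its 12 nuclei of VAT held 1 Acacb UMI in the first library and 0 in the second. B cell markers summed to 1499 and 1758 CPM in the young libraries of this cluster and to 536 and 1257 in the old SAT libraries, and adipocyte markers to 16000 to 28050 over all 6. In the barcodes removed by the filters Acacb was 190 and 157 CPM in young SAT, 68.2 and 50.6 in old SAT, and 116.5 and 42.2 in VAT.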
